A study of Mus musculus with 23 samples.

Results

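The Toll-like receptor transcripts of murine bone marrow-derived macrophages (BMDM) were followed across 3 genotypes and 2 treatments. The receptors comprised Tlr1, Tlr2, Tlr3, Tlr4, Tlr5, Tlr6, Tlr7, Tlr8, Tlr9 and Tlr13, and their probes were found through the RefSeq accession that the array design gives for each probe. This yielded 11 probes of 10 genes, out of 32885 probes with an accession and 26014 genes on the array. Tlr7 was covered by 2 probes and every other receptor by 1. The probe of Tlr2 was printed on 10 spots of each array and that of Tlr4 on 2.

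BMDM were grown for 9 days with M-CSF from the femoral marrow of male C57BL/6 mice that were 10 to 14 weeks of age. Cells without a deletion (wt), cells lacking the kinase MK2 (MK2-/-) and cells lacking both MK2 and its relative MK3 (MK2/3-/-) were exposed for 120 min to medium alone or to 100 ng/ml LPS, the cell wall component of Gram-negative bacteria. The knockout cells came from mice deficient for the kinases, and the M-CSF had been withdrawn 1 h before the treatment in all groups, per the study's methods. Each sample was labelled with a single dye and hybridized to its own Agilent array. There were 4 arrays per group apart from MK2-/- BMDM in medium with 3 arrays, and thus 23 arrays in all. The wt mice were 12 to 13 weeks, the MK2-/- mice 10 to 13 weeks and the MK2/3-/- mice 11 to 14 weeks of age.

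Toll-like receptors are membrane proteins of innate immune cells that recognize microbial components through an extracellular domain of leucine-rich repeats and recruit adaptor proteins through a cytoplasmic TIR domain. Tlr1, Tlr2, Tlr4, Tlr5 and Tlr6 act at the cell surface and bind lipids, lipoproteins and proteins of bacteria, whereas Tlr3, Tlr7, Tlr8, Tlr9 and Tlr13 act in endosomes and bind nucleic acids. LPS is the ligand of Tlr4, and in macrophages the p38 pathway downstream of this receptor activates MK2 and MK3, which act on the stability and translation of cytokine mRNAs.

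All levels are log2 signals, that is, the log2 of the background-corrected fluorescence of a probe after quantile normalization of the arrays, so that a difference of 1 corresponds to a 2-fold change. As probes differ in brightness, levels were compared between samples for a given probe and not between receptors. Groups were compared with limma over all 26014 genes with Benjamini-Hochberg adjustment, and a gene was called changed at an adjusted p under 0.05. Single receptors were also tested by exact permutation of the arrays (two-sided), where p cannot fall below 0.0286 with 4 arrays against 4 or 3. This permutation took no account of medium and LPS arrays that share a culture. Of the 10 receptors, 9 were well above background on all 23 arrays, according to the mark of the scanner software. Tlr5 reached this mark in medium on 2 of 4 wt arrays, on 2 of 3 arrays of MK2-/- BMDM and on 0 of 4 of MK2/3-/- BMDM, and after LPS on 1 of 4, 1 of 4 and 0 of 4 arrays.

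The targeted transcripts were measured as a check of the labels. Mapkapk2, which encodes MK2, was lower than in wt BMDM by a log2 difference of -3.31 in medium and -2.81 after LPS in MK2-/- BMDM, and by -3.50 and -3.01 in MK2/3-/- BMDM. Mapkapk3, which encodes MK3, differed between MK2/3-/- and wt BMDM by -1.62 in medium and -3.30 after LPS. Of the 7 macrophage markers listed, 6 had a probe and all of these were well above background on every array. Lists of other cell types were mixed. Among B cell genes, Cd79b was well above background on 23 arrays, Ms4a1 on 13, Cd79a on 5 and Pax5 on 0, and among T cell genes Cd3e on 23, Cd4 on 10, Cd3g on 2 and Cd3d and Cd8a on 0. Among dendritic cell genes this held for Flt3 on 23 arrays, Zbtb46 and Ccr7 on 22, Siglech on 16, Xcr1 on 1 and Clec9a on 0, and among neutrophil genes for S100a8, S100a9, Elane and Camp on 23, Ngp on 20 and Mpo on 16. The summed linear signal of 6 stromal genes (Col1a1, Col1a2, Col3a1, Dcn, Pecam1 and Cdh5) ranged from 625 to 105818 between arrays, and none of the 6 was called changed with LPS in any genotype. The arrays of a genotype were all on 1 slide, so that genotype and slide cannot be told apart, and medium arrays lay in row 1 and LPS arrays in row 2 of each slide, so that treatment and row cannot be told apart either. On 2 arrays, MK2-/- LPS replicate 1 and MK2/3-/- medium replicate 2, the scanner software had no fit for the gradient across the array.

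LPS raised Tlr1, Tlr2, Tlr3 and Tlr6 and lowered Tlr4 in each of the 3 genotypes. The increase ranged from 2.24-fold for Tlr3 in wt to 7.24-fold for Tlr2 in wt BMDM, and the decrease of Tlr4 from 1.67-fold in MK2/3-/- to 2.06-fold in MK2-/- BMDM. In each genotype 5 of 10 receptors were thus called (limma, adjusted over all genes), compared with 17.1% of all genes in wt BMDM, 18.6% in MK2-/- BMDM and 24.9% in MK2/3-/- BMDM. The median log2 difference over the 10 receptors was 0.32 for wt, 0.24 for MK2-/- and 0.34 for MK2/3-/- BMDM, and that over all genes was 0.01, -0.01 and -0.02. The receptors called were 3 of the surface receptors that rose, the LPS receptor itself, which fell, and 1 of 5 endosomal receptors. The fit behind these calls left aside that medium and LPS arrays share cultures. With the culture as a block, Tlr7 was also called in both knockouts (limma, adjusted p = 0.0250 in MK2-/- and 0.0289 in MK2/3-/- BMDM). In a culture of many cells, fewer cells of a type and less RNA per cell cannot be told apart for any of these transcripts.

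**Figure D1:**
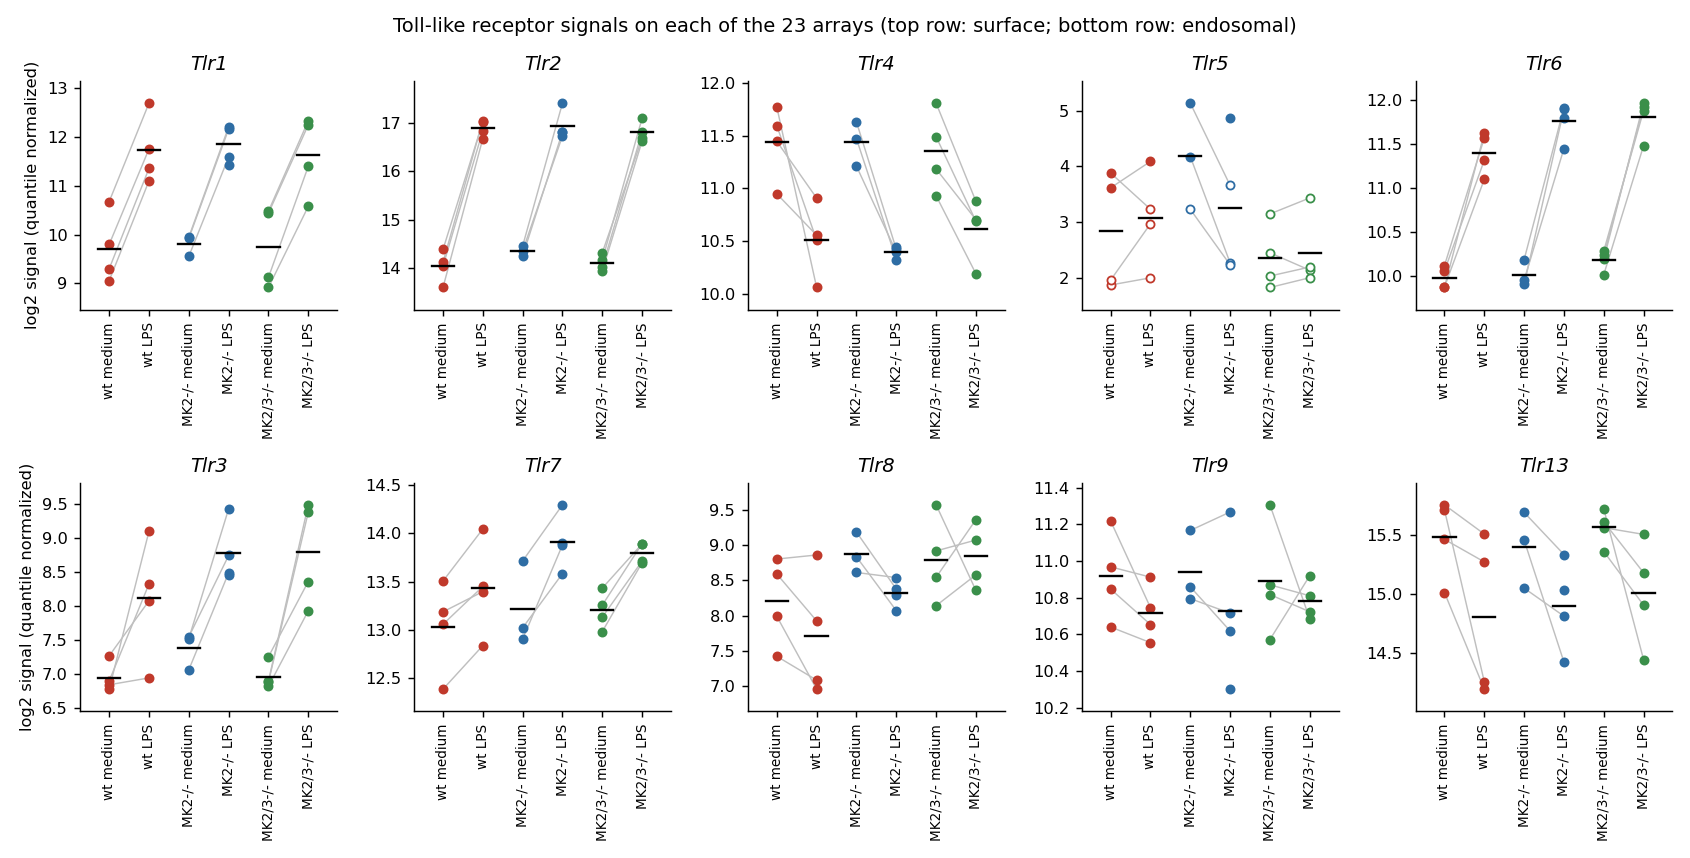
Log2 signal of the 10 receptors (one panel each) on every array, in 6 groups of genotype and treatment. Each point is an array, grey lines join the medium and LPS array of a culture, black bars are group means, and open circles mark arrays on which the probe was not well above background; the LPS points of Tlr1, Tlr2 and Tlr6 lie above all medium points of their genotype and those of Tlr4 below.

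As Tlr1, Tlr2, Tlr3 and Tlr6 rose together, the sequences around their starts are shown. The windows run from 250 bases before to 50 bases after an annotated start. They were taken from a set of RefSeq promoter windows (mouse GRCm38.p6), which held 10 windows for 8 of the 10 receptors. For Tlr4 and Tlr7 this set had no window. The windows shown for Tlr6 and Tlr3 lie wholly inside the span listed for the gene in the same assembly. That of Tlr2 lies mostly inside its span, which ends at 83841824, and that of Tlr1 in part, with a span that ends at 64933600. Capitals mark the motifs found on either strand: GGG, any 2 bases, TTTCC for NF-kB, GAAA, any 2 bases, GAAA for interferon regulatory factors, GAGGAAGT for PU.1 and TGANTCA for AP-1. For Tlr1 and Tlr6 the first of 2 windows is given. The windows were chr5:64933509-64933808 (minus strand) for Tlr1, chr3:83841559-83841858 (minus strand) for Tlr2, chr5:64959117-64959416 (minus strand) for Tlr6 and chr8:45410331-45410630 (minus strand) for Tlr3.
Tlr1: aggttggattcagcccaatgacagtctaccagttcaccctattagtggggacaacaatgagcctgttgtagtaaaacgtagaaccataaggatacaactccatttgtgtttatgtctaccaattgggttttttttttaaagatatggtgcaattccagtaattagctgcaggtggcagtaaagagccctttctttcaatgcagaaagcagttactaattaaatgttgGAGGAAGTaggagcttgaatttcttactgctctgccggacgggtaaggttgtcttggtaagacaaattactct
Tlr2: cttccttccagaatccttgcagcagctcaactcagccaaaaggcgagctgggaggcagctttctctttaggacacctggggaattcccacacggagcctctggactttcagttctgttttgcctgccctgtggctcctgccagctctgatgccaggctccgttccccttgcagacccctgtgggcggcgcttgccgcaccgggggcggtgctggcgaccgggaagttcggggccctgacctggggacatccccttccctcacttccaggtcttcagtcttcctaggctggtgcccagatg
Tlr6: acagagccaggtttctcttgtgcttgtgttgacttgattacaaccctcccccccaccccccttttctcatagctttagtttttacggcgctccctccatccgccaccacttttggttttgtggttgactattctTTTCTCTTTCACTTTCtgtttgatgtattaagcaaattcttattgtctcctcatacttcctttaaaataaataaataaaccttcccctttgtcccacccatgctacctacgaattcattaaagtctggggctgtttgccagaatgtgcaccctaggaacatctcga
Tlr3: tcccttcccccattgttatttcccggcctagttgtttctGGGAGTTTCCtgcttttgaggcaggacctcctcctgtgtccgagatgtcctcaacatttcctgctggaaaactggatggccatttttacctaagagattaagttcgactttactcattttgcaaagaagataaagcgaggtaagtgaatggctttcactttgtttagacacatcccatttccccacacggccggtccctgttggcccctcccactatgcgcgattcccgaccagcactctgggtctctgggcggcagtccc

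The Tlr1 window held the PU.1 motif, named after a transcription factor of myeloid cells, 23 bases before the start. In the Tlr6 window the motif of interferon regulatory factors occurred at 116 and at 110 bases before the start, on the reverse strand and with an overlap between both matches. The Tlr3 window held the NF-kB motif 211 bases before the start, and the Tlr2 window held none of the 4 motifs as spelled here. Only these spellings were searched, so that a site for the same factors with another spelling was left unmarked. Among the other receptors, Tlr9 had an AP-1 motif 58 bases before the start and a PU.1 motif within the 50 bases after it, while the windows of Tlr5, Tlr8 and Tlr13 and the second windows of Tlr1 and Tlr6 held none. Over all 32851 windows of 27025 genes, 1.63% held the NF-kB motif, 3.44% the motif of interferon regulatory factors, 3.2% the PU.1 motif and 7.81% the AP-1 motif, so that a match in 1 or 2 of 8 receptor genes describes the sequence only. Tlr1 and Tlr6 neighbour each other on chromosome 5, and Tlr7 and Tlr8 on chromosome X.

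Tlr2, which recognizes bacterial lipoproteins as a dimer with Tlr1 or Tlr6, had the largest increase among the receptors in each genotype. Its log2 signal in wt BMDM was 13.60, 14.39, 14.12 and 14.04 in medium and 16.67, 17.02, 17.04 and 16.84 after LPS (replicates 1 to 4). In MK2-/- BMDM it was 14.36, 14.25 and 14.46 in medium and 16.73, 16.81, 16.80 and 17.40 after LPS. In MK2/3-/- BMDM it was 14.32, 13.95, 14.03 and 14.17 in medium and 16.68, 16.62, 16.81 and 17.09 after LPS. All LPS arrays were above all medium arrays, the lowest LPS array being at 16.62 and the highest medium array at 14.46. The difference between LPS and medium was 2.86 (SE 0.17, adjusted p = 4.25e-10) in wt, 2.58 (SE 0.19, adjusted p = 7.02e-09) in MK2-/- and 2.69 (SE 0.17, adjusted p = 9.00e-10) in MK2/3-/- BMDM, which corresponds to 7.24-fold, 5.97-fold and 6.43-fold. The exact permutation test gave its smallest p, 0.0286, in each genotype. Between the 10 spots of the probe on an array the SD was 0.0404 to 0.186, which describes technical spread within an array. In the order of group means the 3 LPS groups stood above the 3 medium groups, and neighbours within each set differed by at most 0.24, with no call.

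Tlr1, the partner of Tlr2 for triacylated lipoproteins, rose to a similar extent in all genotypes but varied more between cultures. The log2 signal in wt BMDM was 9.30, 10.68, 9.80 and 9.06 in medium and 11.36, 12.69, 11.75 and 11.10 after LPS. In MK2-/- BMDM it was 9.93, 9.95 and 9.56 in medium and 12.16, 12.21, 11.43 and 11.59 after LPS. In MK2/3-/- BMDM it was 10.44, 10.48, 9.13 and 8.92 in medium and 12.25, 12.33, 11.40 and 10.58 after LPS. The groups did not overlap within a genotype, although in MK2/3-/- BMDM the lowest LPS array (10.58) was close to the highest medium array (10.48). LPS changed the signal by 2.02 (SE 0.46, adjusted p = 0.00357) in wt, 2.04 (SE 0.49, adjusted p = 0.00559) in MK2-/- and, in MK2/3-/- BMDM, 1.90 (SE 0.46, adjusted p = 0.00395), or 4.05-fold, 4.10-fold and 3.73-fold. Within a culture the change was between 1.95 and 2.05 in the 4 wt, between 2.03 and 2.26 in 3 MK2-/- and between 1.66 and 2.27 in 4 MK2/3-/- cultures. By the methods' t-test the calls in wt and MK2/3-/- BMDM were lost (adjusted p = 0.0551 and 0.0788). The adjustment over all genes was added to that test here, as the methods state none for it.

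Tlr6, the partner of Tlr2 for diacylated lipoproteins, rose with LPS in all 3 genotypes. Its log2 signal was 9.88, 9.87, 10.12 and 10.06 in wt BMDM in medium and 11.10, 11.62, 11.57 and 11.31 after LPS. It was 10.19, 9.91 and 9.96 in MK2-/- BMDM in medium and 11.91, 11.89, 11.79 and 11.45 after LPS. It was 10.19, 10.24, 10.29 and 10.02 in MK2/3-/- BMDM in medium and 11.96, 11.92, 11.88 and 11.48 after LPS. The lowest LPS array (11.10) was above the highest medium array (10.29) of all genotypes. The difference was 1.42 (SE 0.14, adjusted p = 6.41e-07) in wt, 1.74 (SE 0.16, adjusted p = 1.14e-07) in MK2-/- and 1.63 (SE 0.14, adjusted p = 6.74e-08) in MK2/3-/- BMDM, and thus 2.67-fold, 3.34-fold and 3.09-fold (exact permutation p = 0.0286 each). The order of means after LPS was MK2/3-/-, MK2-/- and wt, with means of 11.81, 11.76 and 11.40.

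Tlr4, the receptor for LPS together with its co-receptor MD-2, fell with LPS. The log2 signal in wt BMDM was 11.77, 11.60, 11.45 and 10.95 in medium and 10.06, 10.51, 10.91 and 10.56 after LPS. In MK2-/- BMDM it was 11.47, 11.63 and 11.21 in medium and 10.32, 10.42, 10.44 and 10.39 after LPS. In MK2/3-/- BMDM it was 11.49, 11.81, 11.18 and 10.93 in medium and 10.69, 10.88, 10.70 and 10.19 after LPS. The groups did not overlap in any genotype, but the highest LPS array and the lowest medium array were close in wt (10.91 and 10.95) and MK2/3-/- BMDM (10.88 and 10.93). The signal changed by -0.93 (SE 0.21, adjusted p = 0.00393) in wt, -1.04 (SE 0.23, adjusted p = 0.00275) in MK2-/- and -0.74 (SE 0.21, adjusted p = 0.0145) in MK2/3-/- BMDM, so that it was 1.91-fold, 2.06-fold and 1.67-fold lower (exact permutation p = 0.0286 each). It was lower after LPS in 11 of 11 cultures. In MK2/3-/- BMDM the call was lost without medium replicate 2 (-0.59, adjusted p = 0.0605), without LPS replicate 4 (-0.60, adjusted p = 0.0518), without both arrays that lacked a gradient fit (-0.59, adjusted p = 0.0700) and when only the MK2/3-/- groups were fitted (-0.74, adjusted p = 0.0681). By the methods' t-test it was lost there and in wt BMDM (adjusted p = 0.0917 and 0.0665).

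Tlr5, the receptor for flagellin, had no level that could be compared. The probe did not rise well above background in any MK2/3-/- sample, and no LPS difference passed the test (0.24, -0.92 and 0.08 in wt, MK2-/- and MK2/3-/- BMDM, adjusted p = 0.892, 0.416 and 0.956).

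Of the endosomal receptors, Tlr3 rose with LPS. Tlr3 binds double-stranded RNA and, unlike the other receptors, signals through TRIF without Myd88. The log2 signal in wt BMDM was 6.90, 6.78, 7.27 and 6.84 in medium and 8.32, 9.10, 8.07 and 6.94 after LPS. In MK2-/- BMDM it was 7.54, 7.52 and 7.06 in medium and 8.74, 9.42, 8.45 and 8.48 after LPS. In MK2/3-/- BMDM it was 6.88, 6.89, 7.25 and 6.82 in medium and 9.38, 9.48, 8.36 and 7.93 after LPS. Medium arrays were close to one another, whereas LPS arrays spread from 6.94 to 9.10 in wt BMDM, where replicate 4 was within the range of the medium arrays. The difference was 1.16 (SE 0.38, adjusted p = 0.0387, 2.24-fold) in wt, 1.40 (SE 0.41, adjusted p = 0.0193, 2.64-fold) in MK2-/- and 1.82 (SE 0.38, adjusted p = 0.00110, 3.54-fold) in MK2/3-/- BMDM. The exact permutation test gave p = 0.0571 in wt and 0.0286 in both knockouts, and Tlr3 was higher after LPS in 11 of 11 cultures, by 0.10 to 2.59.

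The call of Tlr3 in wt BMDM depended on several choices. It was lost with signals scaled to the 75th percentile (1.11, adjusted p = 0.0565), with normexp background correction (0.80, adjusted p = 0.0731), without both arrays lacking a gradient fit (1.16, adjusted p = 0.0562), when only the wt groups were fitted (1.16, adjusted p = 0.123) and by the methods' t-test (adjusted p = 0.172). Leaving out wt medium replicate 1, 2 or 4 gave Tlr3 an adjusted p of 0.0764, 0.0895 or 0.0874, and leaving out wt LPS replicate 1, 2 or 3 one of 0.0907, 0.162 or 0.0708. In MK2-/- BMDM the call of Tlr3 was lost without medium replicate 3 (1.24, adjusted p = 0.0859) and without LPS replicate 2 (1.18, adjusted p = 0.0716). No alternative changed the call of Tlr3 in MK2/3-/- BMDM.

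Tlr7, which binds single-stranded RNA, was slightly higher after LPS in each culture without passing the test. Its log2 signal was 12.39, 13.06, 13.51 and 13.19 in wt BMDM in medium and 12.84, 13.45, 14.05 and 13.40 after LPS. It was 13.02, 12.90 and 13.71 in MK2-/- BMDM in medium and 13.58, 13.88, 13.90 and 14.29 after LPS. It was 12.98, 13.13, 13.43 and 13.26 in MK2/3-/- BMDM in medium and 13.70, 13.71, 13.89 and 13.89 after LPS. Groups overlapped in wt and MK2-/- BMDM and did not in MK2/3-/- BMDM. The difference was 0.40 (adjusted p = 0.352) in wt, 0.70 (SE 0.27, adjusted p = 0.0824) in MK2-/- and 0.60 (SE 0.25, adjusted p = 0.0937, exact permutation p = 0.0286) in MK2/3-/- BMDM.

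Cultures are shared between the arrays of a genotype, and within the 11 cultures with both arrays Tlr7 was higher after LPS by 0.21 to 0.98. With the culture as a block, Tlr7 passed the adjustment in both knockouts (0.70 with adjusted p = 0.0250 in MK2-/-, and 0.60 with adjusted p = 0.0289 in MK2/3-/- BMDM). It also passed in both knockouts with signals scaled to the 75th percentile (1.05, adjusted p = 0.0145, and 0.98, adjusted p = 0.0109), and in MK2/3-/- BMDM also with normexp background correction (adjusted p = 0.0309), when only the MK2/3-/- groups were fitted (0.0209), by the methods' t-test (0.0168) and with the replicate number as a block (0.0142). With the replicate number as a block Tlr7 also passed in MK2-/- BMDM (0.61, adjusted p = 0.0266). The 75th percentile scaling moved the median LPS difference of all genes to 0.15 (wt), 0.20 (MK2-/-) and 0.06 (MK2/3-/- BMDM). Without MK2-/- medium replicate 3, Tlr7 was 0.95 higher in MK2-/- BMDM (adjusted p = 0.0322). The second Tlr7 probe gave log2 differences of 0.33, 0.59 and 0.69 in wt, MK2-/- and MK2/3-/- BMDM, and in a fit of all 55681 probes neither Tlr7 probe passed in any genotype (adjusted p = 0.386, 0.0994 and 0.107 for the first and 0.545, 0.225 and 0.0847 for the second).

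Tlr8, a close relative of Tlr7, had LPS differences of -0.49, -0.56 and 0.05 in wt, MK2-/- and MK2/3-/- BMDM (adjusted p = 0.483, 0.434 and 0.955). In MK2-/- BMDM the medium arrays were at 8.83, 9.18 and 8.61 and the LPS arrays at 8.07, 8.37, 8.28 and 8.54. These groups did not overlap (exact permutation p = 0.0286), although the adjustment over all genes was not passed. Within cultures Tlr8 was higher after LPS in 4 and lower in 7 of 11.

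Tlr9, the receptor for unmethylated CpG DNA, was at 10.92 ± 0.24 (SD, n = 4) in wt BMDM in medium and 10.72 ± 0.15 (SD, n = 4) after LPS. All 6 group means of Tlr9 were between 10.72 and 10.94, and its LPS differences of -0.20, -0.21 and -0.11 in wt, MK2-/- and MK2/3-/- BMDM were not larger than the spread between arrays (adjusted p = 0.572, 0.556 and 0.761). The 95% confidence intervals of these differences, from -0.59 to 0.19, from -0.64 to 0.21 and from -0.50 to 0.28, left out a change of 2-fold in either direction.

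Tlr13, which recognizes bacterial ribosomal RNA, was at 15.01, 15.72, 15.76 and 15.46 in wt BMDM in medium and at 14.19, 14.26, 15.51 and 15.27 after LPS. The LPS difference was -0.68 (SE 0.29, adjusted p = 0.137) in wt, -0.50 (adjusted p = 0.333) in MK2-/- and -0.56 (adjusted p = 0.192) in MK2/3-/- BMDM, and none passed the test. Tlr13 was lower after LPS in 11 of 11 cultures, with differences between -1.46 and -0.06, but with signals scaled to the 75th percentile only in 7 of 11. It passed the adjustment in wt BMDM without LPS replicate 3 (-0.91, adjusted p = 0.0419) and with the replicate number as a block (-0.68, adjusted p = 0.0398).

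**Figure D2:**
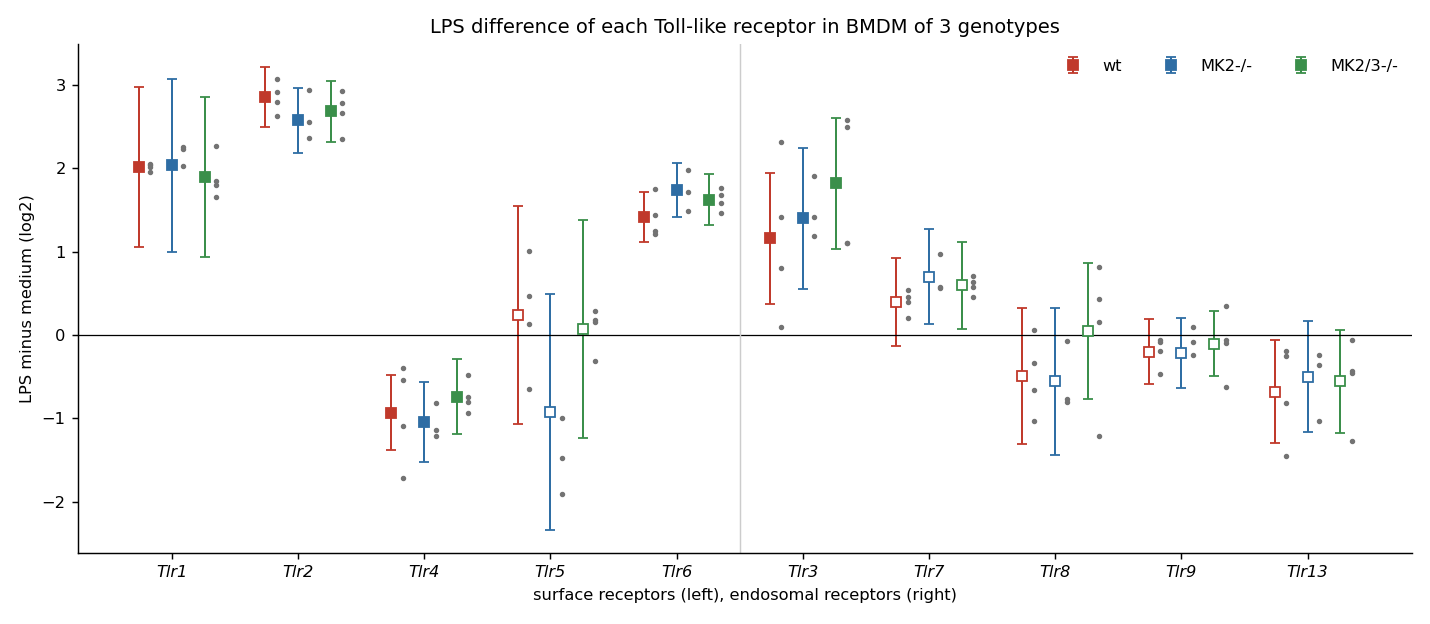
Log2 difference between LPS and medium for each receptor in wt, MK2-/- and MK2/3-/- BMDM. Squares are limma estimates with 95% confidence intervals, filled where the adjusted p was under 0.05, and grey dots are the changes within single cultures; Tlr1, Tlr2, Tlr3 and Tlr6 are filled above 0 and Tlr4 below 0 in all 3 genotypes.

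The levels of the receptors were compared between genotypes within a treatment. No group lacked MK3 alone, and genotype cannot be told apart from slide in these comparisons. In medium, 0 of 10 receptors differed between MK2-/- and wt BMDM (0.00769% of all genes were called), between MK2/3-/- and wt BMDM (0.0769%) or between MK2/3-/- and MK2-/- BMDM (0.0461%). After LPS the number was again 0 of 10 for MK2-/- against wt (0.0308% of all genes), for MK2/3-/- against wt (1.64%) and for MK2/3-/- against MK2-/- BMDM (0.161%). At an unadjusted p under 0.05, limma gave 0, 0 and 1 receptors in the 3 comparisons in medium and 1, 2 and 0 in those after LPS. Of all 26014 genes, 890, 1205 and 928 had such a p in medium and 1952, 3525 and 2059 after LPS. The methods' t-test and the fit with the culture as a block also gave 0 receptors in each of these comparisons after adjustment.

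The receptors with an unadjusted p under 0.05 after LPS were Tlr6 and Tlr8. Tlr6 differed by 0.36 between MK2-/- and wt BMDM (95% confidence interval 0.06 to 0.66, adjusted p = 0.627) and by 0.41 between MK2/3-/- and wt BMDM (0.11 to 0.71, adjusted p = 0.191). All 4 arrays of each knockout were above the wt mean, and the groups overlapped (exact permutation p = 0.0857 each). Tlr8 was at 7.08, 7.92, 8.86 and 6.96 in wt and at 8.36, 9.07, 9.36 and 8.58 in MK2/3-/- BMDM after LPS. Its wt replicate 3 was above 2 of 4 MK2/3-/- arrays. The difference in Tlr8 was 1.14 (95% confidence interval 0.32 to 1.95, adjusted p = 0.174, exact permutation p = 0.0857), and without wt LPS replicate 3 it was 1.52 and passed the adjustment (adjusted p = 0.0340). In medium, the difference in Tlr8 between MK2/3-/- and wt BMDM was 0.59 (-0.22 to 1.41, adjusted p = 1.00).

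For the receptors that changed with LPS, intervals of the genotype differences after LPS were computed. They hold the spread between arrays of the same slide. A difference between slides, which cannot be told apart from genotype, is not part of them. The 95% confidence interval for MK2/3-/- against wt BMDM ran from -0.45 to 0.27 for Tlr2, from -0.34 to 0.55 for Tlr4, from -1.04 to 0.87 for Tlr1 and from -0.11 to 1.47 for Tlr3. For MK2-/- against wt BMDM it ran from -0.32 to 0.40 for Tlr2, from -0.56 to 0.34 for Tlr4, from -0.84 to 1.08 for Tlr1 and from -0.12 to 1.46 for Tlr3. A 2-fold difference in either direction thus lay outside both intervals for Tlr2 and Tlr4, whereas for Tlr1 and Tlr3 it lay inside them in 1 direction.

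**Figure D3:**
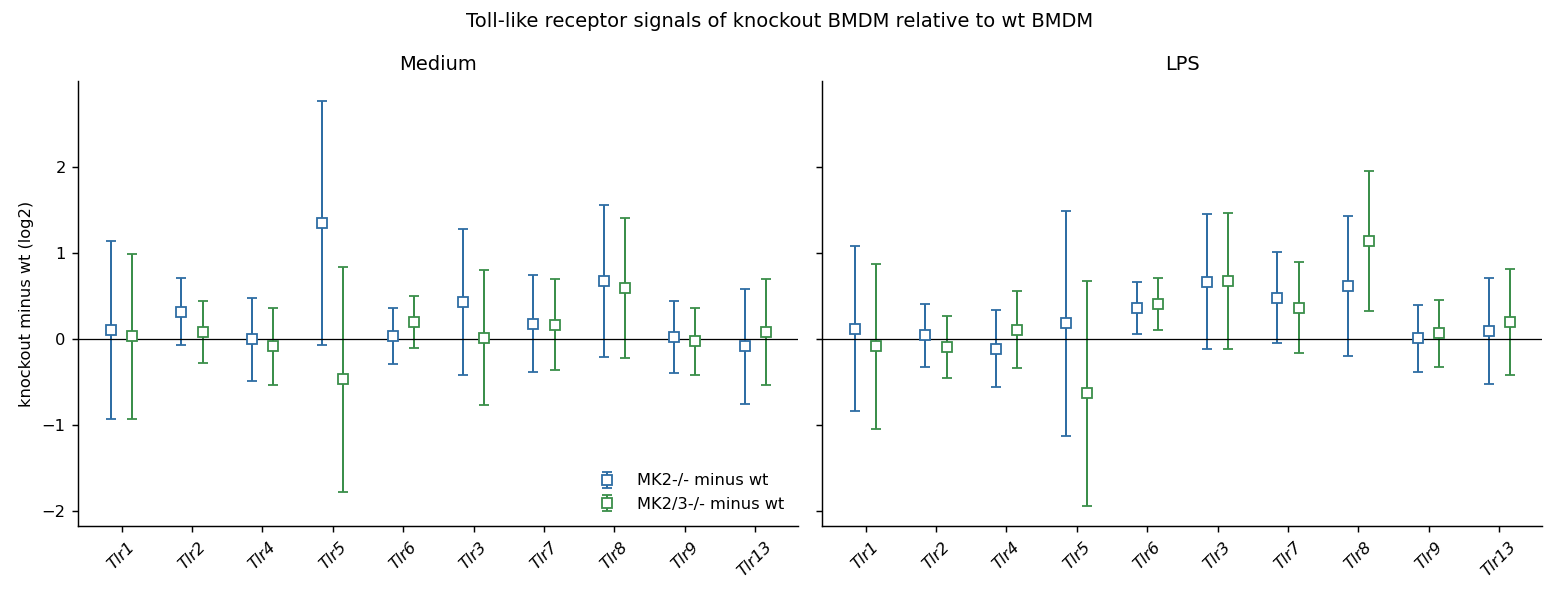
Log2 difference of each receptor between the knockouts and wt BMDM, in medium and after LPS, with 95% confidence intervals from limma. All symbols are open because 0 of 10 receptors had an adjusted p under 0.05 in any of these comparisons; Tlr6 and Tlr8 after LPS have intervals above 0 in MK2/3-/- BMDM.

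The LPS response itself was compared between genotypes with an interaction contrast. It was called for 0 of 10 receptors for MK2-/- against wt (0.00384% of all genes called), for MK2/3-/- against wt (0.0115%) and for MK2/3-/- against MK2-/- BMDM (0%). At an unadjusted p under 0.05 the count was 0 receptors in each, and 497, 1180 and 748 of all 26014 genes. The LPS change of Tlr2 differed from that in wt BMDM by -0.28 in MK2-/- (95% confidence interval -0.81 to 0.26) and by -0.17 in MK2/3-/- BMDM (-0.68 to 0.34). That of Tlr4 differed by -0.11 (-0.77 to 0.55) and 0.19 (-0.44 to 0.83). The increase of Tlr3 was 0.66 larger in MK2/3-/- than in wt BMDM with an interval from -0.45 to 1.78, so that neither equal responses nor a difference of 2-fold were outside the range. The comparisons of LPS with medium share no arrays between genotypes, whereas both knockouts were set against the same wt arrays.

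Co-receptors, adaptors and the proteins that carry the receptors to their place were read from a list of 25 genes, all of which had a probe. Among the 6 adaptors, which link the TIR domain to kinases, LPS raised 4 in wt BMDM, 3 in MK2-/- BMDM and 4 in MK2/3-/- BMDM and lowered none, while 8.26%, 8.48% and 11.9% of all genes rose. Myd88, the adaptor of nearly all Toll-like receptors, rose by 1.92, 1.93 and 2.27 in wt, MK2-/- and MK2/3-/- BMDM (adjusted p = 1.25e-07, 3.36e-07 and 9.08e-09). Ticam1 (TRIF), used by Tlr3 and Tlr4, rose by 1.49, 1.51 and 1.07 (adjusted p = 0.000452, 0.000785 and 0.00527), and Ticam2 (TRAM), which connects it to Tlr4, by 1.47, 1.50 and 1.92 (adjusted p = 0.000153, 0.000247 and 4.76e-06). Tirap, which bridges Myd88 to Tlr2 and Tlr4, rose by 0.74 in wt and 0.64 in MK2/3-/- BMDM (adjusted p = 0.00496 and 0.0107) and had a difference of 0.55 in MK2-/- BMDM (adjusted p = 0.0514), where it passed under 13 of 37 alternatives. The calls of Myd88 and Ticam2 held under all 37 alternatives in each genotype.

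Of 6 co-receptor genes, 1 rose in wt BMDM and 2 in each knockout, against the same shares of all genes, and none fell. Cd14, which hands LPS to Tlr4, rose by 2.04, 1.79 and 1.66 in wt, MK2-/- and MK2/3-/- BMDM (adjusted p = 1.25e-07, 1.68e-06 and 1.16e-06). Ly96, which encodes MD-2, had differences of 0.25, 0.28 and 0.17 and was not called (adjusted p = 0.731, 0.706 and 0.792). Cd180, a relative of Tlr4 that was picked here after its values were seen, had a difference of 0.68 in wt (adjusted p = 0.0749) and rose by 0.81 in MK2-/- and 1.32 in MK2/3-/- BMDM (adjusted p = 0.0442 and 0.000568). The call in MK2-/- BMDM was lost under 11 of 37 alternatives.

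Among 11 genes for trafficking and processing, 2 fell in wt and MK2-/- BMDM each and 0 in MK2/3-/- BMDM, and none rose, while 8.89%, 10.1% and 12.9% of all genes fell in wt, MK2-/- and MK2/3-/- BMDM. Cnpy3, a chaperone that folds Toll-like receptors in the endoplasmic reticulum, fell by 0.62 in wt and by 0.54 in MK2-/- BMDM (adjusted p = 0.0136 and 0.0450) and had a difference of -0.33 in MK2/3-/- BMDM (adjusted p = 0.175). Slc15a4, an endosomal transporter needed for Tlr7 and Tlr9 signalling, fell by 0.65 and 0.67 (adjusted p = 0.0303 and 0.0361) and had a difference of -0.52 in MK2/3-/- BMDM (adjusted p = 0.0666). These calls were lost under 3 and 16 of 37 alternatives for Cnpy3 in wt and MK2-/- BMDM and under 5 and 8 for Slc15a4. Unc93b1, which escorts the endosomal receptors, had differences of -0.23, -0.35 and -0.06 and was not called. Between genotypes, Ctsl, a lysosomal protease that cleaves endosomal receptors, had a lower level after LPS in MK2/3-/- than in wt BMDM (-0.75, adjusted p = 0.0496), a call that was lost under 23 of 37 alternatives. Tlr11 was well above background on 2 arrays and Tlr12 on 0, and neither was called.

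**Figure D4:**
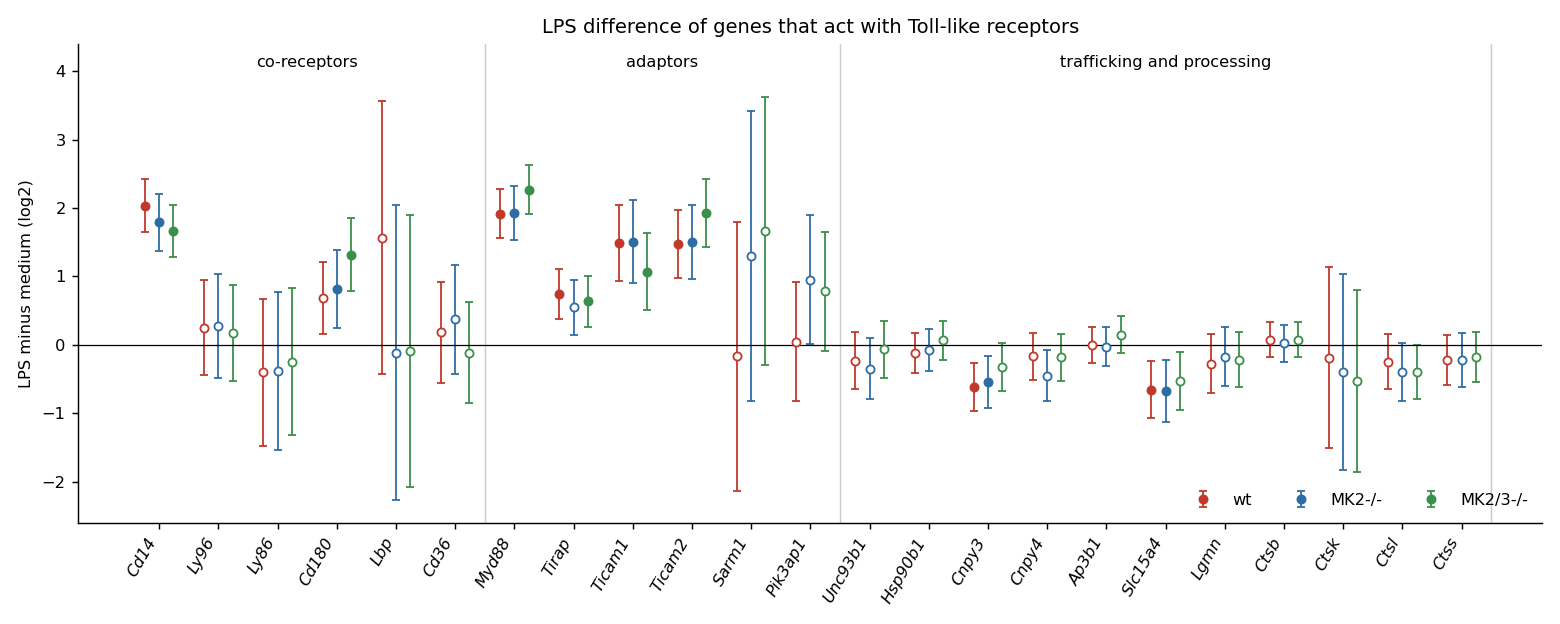
Log2 difference between LPS and medium for genes of co-receptors, adaptors, and trafficking and processing in the 3 genotypes. Each symbol is the limma estimate of a gene in a genotype, filled where the adjusted p was under 0.05; Myd88, Ticam1, Ticam2 and Cd14 are filled above 0 in all 3 genotypes.

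Over the 23 arrays, after removal of the group means, Tlr1 had a correlation of 0.61 with Tlr4, 0.60 with Tlr3, 0.51 with Tlr6 and 0.03 with Tlr2, and Tlr7 one of 0.69 with Tlr13. Across pairs the values ranged from -0.68 (Tlr3 with Tlr13) to 0.71 (Tlr2 with Tlr9). These arrays come from 12 cultures, 11 of which gave both a medium and an LPS array, and are therefore no independent points. With group means included, Tlr2 and Tlr6 had a correlation of 0.94, which turned to -0.28 within groups. Tlr1 and Tlr4, which moved in opposite directions with LPS, had a correlation of -0.60 over all arrays.

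Tlr1 tended to be low in cultures with a high signal of stromal genes. The summed linear signal of the 6 stromal genes was 4617 to 105818 in wt, 1334 to 34708 in MK2-/- and 625 to 59059 in MK2/3-/- BMDM in medium. As linear signals were summed, the sum mainly follows the brightest probes, those of Col1a2 and Col1a1. Their highest log2 signals were 16.35 and 14.36, against 10.44 for Col3a1, 7.21 for Pecam1, 5.57 for Dcn and 5.12 for Cdh5. In wt BMDM the culture with the lowest sum, replicate 2, had the highest Tlr1 in medium and after LPS, while that with the highest sum, replicate 1, had the second lowest. In MK2/3-/- BMDM the culture with the highest sum, replicate 4, had the lowest Tlr1, while that with the lowest sum, replicate 1, had the second highest. Over 12 cultures, each the mean deviation of its arrays from the group means, Tlr1 and the log2 stromal sum had a Pearson r of -0.88 (p = 0.00224) and a Spearman rho of -0.87 (p = 0.00369) in an exact permutation test within genotypes. Without the 2 cultures farthest from the median sum, MK2/3-/- cultures 1 and 4, r was -0.82. Of 63 relations computed in this family (9 receptors, 6 marker lists and the share of probes well above background), none passed the adjustment, with adjusted p = 0.141 and 0.232 for r and rho of Tlr1. Tlr1 had an r of 0.72 with the dendritic cell list, 0.63 with the macrophage list and 0.63 with the neutrophil list (adjusted p = 0.308, 0.300 and 0.411 by exact permutation). The stromal r was -0.77 for Tlr6, -0.76 for Tlr3, -0.72 for Tlr4, 0.10 for Tlr2 and 0.19 for Tlr7. The change of Tlr1 with LPS was 2.05 in the wt culture with the highest and 2.02 in that with the lowest stromal sum, 2.03 and 2.26 in the corresponding MK2-/- cultures and 1.66 and 1.81 in the MK2/3-/- cultures. Whether cells other than macrophages add to the Tlr1 level was not tested.

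**Figure D5:**
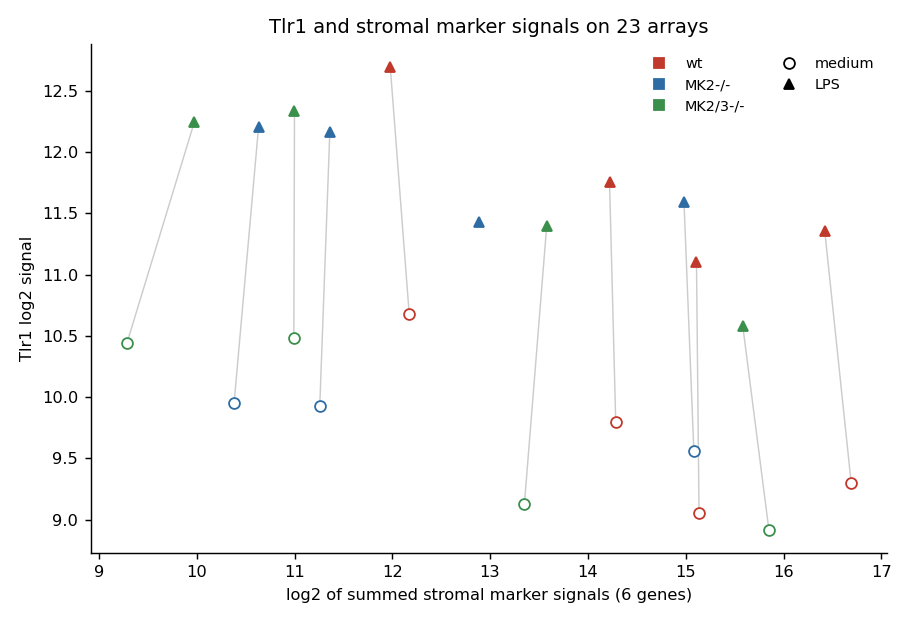
Log2 signal of Tlr1 against the log2 of the summed stromal marker signals on 23 arrays, with grey lines joining the medium and LPS array of a culture. LPS arrays lie about 2 above the medium array of their culture. Tlr1 tended to be lower at higher stromal sums, which mainly follow Col1a1 and Col1a2. This relation did not pass the adjustment, and wt replicate 1 had the highest sum but not the lowest Tlr1.

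The summed signal of 6 dendritic cell genes was 111 to 617 in wt BMDM in medium and 1399 to 2720 after LPS, with 2 of 6 genes called higher in wt and 1 of 6 in each knockout. Only these 1 or 2 genes of the list were thus called in the same direction as Tlr1, Tlr2, Tlr3 and Tlr6. For comparison, the share of all genes called higher was 8.26% (wt), 8.48% (MK2-/-) and 11.9% (MK2/3-/-). Of the 6 macrophage markers with a probe, 2 were called lower with LPS in both wt and MK2-/- cultures, and 0 where both kinases were missing. The part of either list in the result was not tested.

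The genes whose level was most like that of a receptor were found among 12560 genes well above background on all 23 arrays, by the Pearson correlation of log2 signals over these arrays. The arrays share cultures and the LPS response, so that the values describe these samples. For Tlr2 they were Nlrp3 (0.995), Zc3h12c (0.989) and Tnip1 (0.989), and after removal of the group means these were 0.83, 0.62 and 0.34. For Tlr1 they were Ifi204 (0.98), XM_001000891 and Gvin1 (0.97 each), with 0.95, 0.91 and 0.92 within groups. Tlr6 was most like Cd69, Tet2 and Mxd1 (0.99 each), and Tlr3 most like Gm5431, Mapkbp1 (0.96 each) and Stau1 (0.95). For Tlr4 the genes were Armc7 (0.93), Zfp710 and 6330418K02Rik (0.91 each).

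For the receptors that were not called, the highest correlations were 0.90 for Tlr7 with Sowahc, 0.87 for Tlr8 with Zmym5, 0.86 for Tlr9 with Anapc2 and 0.95 for Tlr13 with Inpp5d. After removal of the group means these were 0.89, 0.81, 0.86 and 0.93, close to the values over all arrays.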

How the data were processed

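RNA of 23 BMDM samples was measured on Agilent one-color arrays. Per the file headers, the intensity of each spot was made by the authors with Feature Extraction 11.0.1.1 as background-subtracted, linear values that are not normalized between arrays, with a gradient correction that had no fit on 2 arrays. The table deposited by the authors holds log2 values, which per the methods were quantile normalized and then centred on the probe's median, and against it the same steps on the spots gave r = 1.00 and differed by a median of 0.00123 over 55681 probes.

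Values of spots with the scanner marks for non-uniformity or population outlier were set as missing (19 values among the Tlr2 spots), signals were log2 transformed, spots of a probe averaged and arrays quantile normalized, using R 4.3.3, limma 3.58.1 and data.table (version 1.17.8) (figures: Python 3.11.15, matplotlib 3.10.9). Of 32885 probes with an accession, 29150 had a RefSeq entry, and 27509 of these were named through a GRCm38.p6 gene table as 20887 genes. Of several probes of a gene, the probe most induced by LPS in wt BMDM was taken, as the methods state. One linear model of 6 groups (lmFit, contrasts.fit and eBayes of limma, without trend) gave 12 contrasts. All p-values are two-sided and adjusted by Benjamini-Hochberg over 26014 genes at 0.05. The methods' two-sample t-test was an alternative, run here with the same adjustment, which the methods do not state for it.

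Named genes were all members, Mapkapk2 and Mapkapk3, pathway genes called for LPS in wt or between genotypes, and the 3 most similar genes of each member above background on all arrays. Outside this rule, Ly96, Cd180, Unc93b1, Tlr11, Tlr12 and marker genes were named after their values were seen. Members and lists were chosen with earlier results of these data known. The labels number separate cultures, whose independence the methods state, and medium and LPS arrays with the same number share a culture, with MK2-/- medium replicate 3 belonging to culture 4 by the label letter and the age of the mice. After removal of group means all 11 pairs correlated (r = 0.358 to 0.775, 12560 genes), so that the culture was used as a random block in an alternative (consensus correlation 0.241). The steps were tested on simulated data. Precision is limited by how many arrays there are. The alternatives comprised scaling, background, filters, probe choice, fit and left-out arrays.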

Additional observations from a re-analysis of the deposited data

Results flagged for a closer look

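Of 50 combinations of receptor and group with 4 arrays, 2 held an array that stood apart from the other 3, and chance alone marks about 1 in 20 such groups. Tlr2 in MK2-/- BMDM after LPS was at 17.4 in replicate 4, with the other arrays between 16.73 and 16.81. Without that array the LPS increase of Tlr2 in MK2-/- BMDM still passed the adjustment. Tlr5 in MK2/3-/- BMDM after LPS was at 3.43 in replicate 1, with the next array at 2.19, and none of these 4 arrays had the probe well above background.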

How the results depend on the processing

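Over 37 alternatives, 4398 values of single receptors and contrasts were recomputed. The outcome was the same in 4364, most of which were values called under neither setting. Only the 5 of 10 receptors called for LPS in each genotype had a call to lose, as no genotype comparison or interaction had one. A call was lost in 21 values and gained in 13, and 0 called values reversed, while 168 values that were called under neither setting changed sign. Tlr1 and Tlr4 in MK2-/- BMDM and Tlr2 and Tlr6 in all 3 genotypes kept their LPS call under every alternative run. The number of receptors called for LPS in wt BMDM was 2 by the methods' t-test after adjustment, in place of 5. Without single arrays it was 4 to 5 for LPS in wt, 4 to 5 in MK2-/- and 4 to 5 in MK2/3-/- BMDM, 0 to 1 for MK2/3-/- against wt BMDM after LPS (1 without wt LPS replicate 3, Tlr8) and 0 in all other genotype comparisons and interactions. The t-test was not run for the interactions. With the culture as a replicate block, as the pairing of arrays allows, the LPS call of Tlr7 was gained in both knockouts and no other call changed. Over all genes, 427 differed between MK2/3-/- and wt BMDM after LPS. The number was 6 when only these groups were fitted, 5 by the methods' t-test after adjustment and 950 with the replicate number as a replicate block. The cause of the changes was not tested. Genotype differences are tied to slides, and Tlr5 was too close to background for a comparison.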
